A study of Saccharomyces cerevisiae with 6 samples.

Results

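The 8 genes described here are CRC1, CAT2, YAT1, YAT2, CIT1, CIT2, CIT3 and SFC1 of the budding yeast Saccharomyces cerevisiae, which encode the carnitine shuttle for acetyl groups, the citrate synthases and a mitochondrial carrier for succinate and fumarate. They were chosen by name, as parts of 1 metabolic branch, with the difference between treated and control arrays already known, so their own differences are given as a description and not as a test. Each of the 8 symbols matched exactly 1 probe set, out of 5498 probe sets that name 1 gene each (5449 genes). The arrays come from BY4743, a diploid laboratory strain, grown from a single colony in minimal medium at 30 °C to an optical density (OD600) of 1.0. In 3 cultures 75 µM LoaOOH (linoleic acid hydroperoxide, an oxidised fatty acid), a dose the submitters call arresting, was added for 1 h, and 3 control cultures received the same volume of its solvent, methanol. Both groups share strain, medium and growth phase, and the labels do not say whether the medium held carnitine or which carbon source it held.

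Acetyl-CoA made in the yeast cytosol or by peroxisomal beta-oxidation cannot cross membranes by itself. It either condenses to citrate in the peroxisome and enters the glyoxylate cycle, or its acetyl group is moved onto carnitine, carried into mitochondria and handed back to coenzyme A. S. cerevisiae does not make carnitine and takes it up from the medium, so the shuttle works only where carnitine is supplied. Crc1 carries acetyl-carnitine across the inner mitochondrial membrane, and the acetyltransferases Cat2, Yat1 and Yat2 load and unload carnitine. Cit1 and Cit3 are mitochondrial and Cit2 is peroxisomal, and Sfc1 exchanges cytosolic succinate from the glyoxylate cycle for mitochondrial fumarate.

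After LoaOOH the messages of the acetyl-carnitine carrier CRC1, the acetyltransferases YAT2 and CAT2 and the minor citrate synthase CIT3 rose between 2.09-fold and 5.98-fold. The messages of the major citrate synthases, CIT1 and CIT2, were 1.12-fold and 1.22-fold lower in the deposited scaling, a direction that turns when arrays are scaled to spike-ins, and that of the third acetyltransferase, YAT1, was not called. SFC1 was dim in both groups and lower with LoaOOH in the deposited scaling. In all, 4 of the 8 were called higher and 3 lower by limma at an adjusted p under 0.05. Among all 5498 probe sets 78.7% were called, 36.8% higher and 41.9% lower, and nothing is read from the count for the 8 genes, which were chosen with this contrast known. The groups did not overlap for 7 of the 8, against 81.1% of all probe sets. The median log2 difference (LoaOOH minus methanol) of the 8 was 0.52, and that of all probe sets was -0.03.

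Control probe sets bear on the direction of the small differences. The 36 probe sets for poly-A spike-ins, bacterial messages added to the RNA, were all lower on the LoaOOH arrays, by 0.518 on average on the log2 scale (exact permutation p = 0.1, the smallest that 3 against 3 arrays allow). The mean difference of the 17 ribosomal RNA probe sets was -0.639, with the same exact p. Other control classes differed less. The 27 hybridisation control probe sets differed by -0.016 on average (exact permutation p = 0.8) and the 17 negative controls by -0.042 (exact permutation p = 0.2). Setting each array to its spike-ins adds that 0.518 to each log2 difference. The median of all probe sets becomes 0.48, and CIT1, CIT2, SFC1 and YAT1 turn positive. All genes share this 1 offset, and the spike-in means of the arrays had SDs of 0.165 (methanol) and 0.125 (LoaOOH). Calls in this scaling are therefore not separate evidence for each gene. The signal at the 3' end minus that at the 5' end, a sign of RNA or labelling quality, moved by -0.147 to 0.584 in 7 control messages, 4 up and 3 down, and the part of these shifts in the results was not tested. In bulk RNA, more message per cell and more cells with the message cannot be told apart. Of the genes deleted in BY4743, URA3 averaged 3.50 in methanol and LEU2 5.39, beside 5.146 for the brightest negative control, while HIS3, which is only partly deleted, averaged 10.99. The haploid genes STE2, STE3 and HO, silent in diploids, averaged 8.34, 6.94 and 5.68 in methanol, above that control. Within a group arrays correlated at 0.9977 or more over all probe sets.

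**Figure D1:**
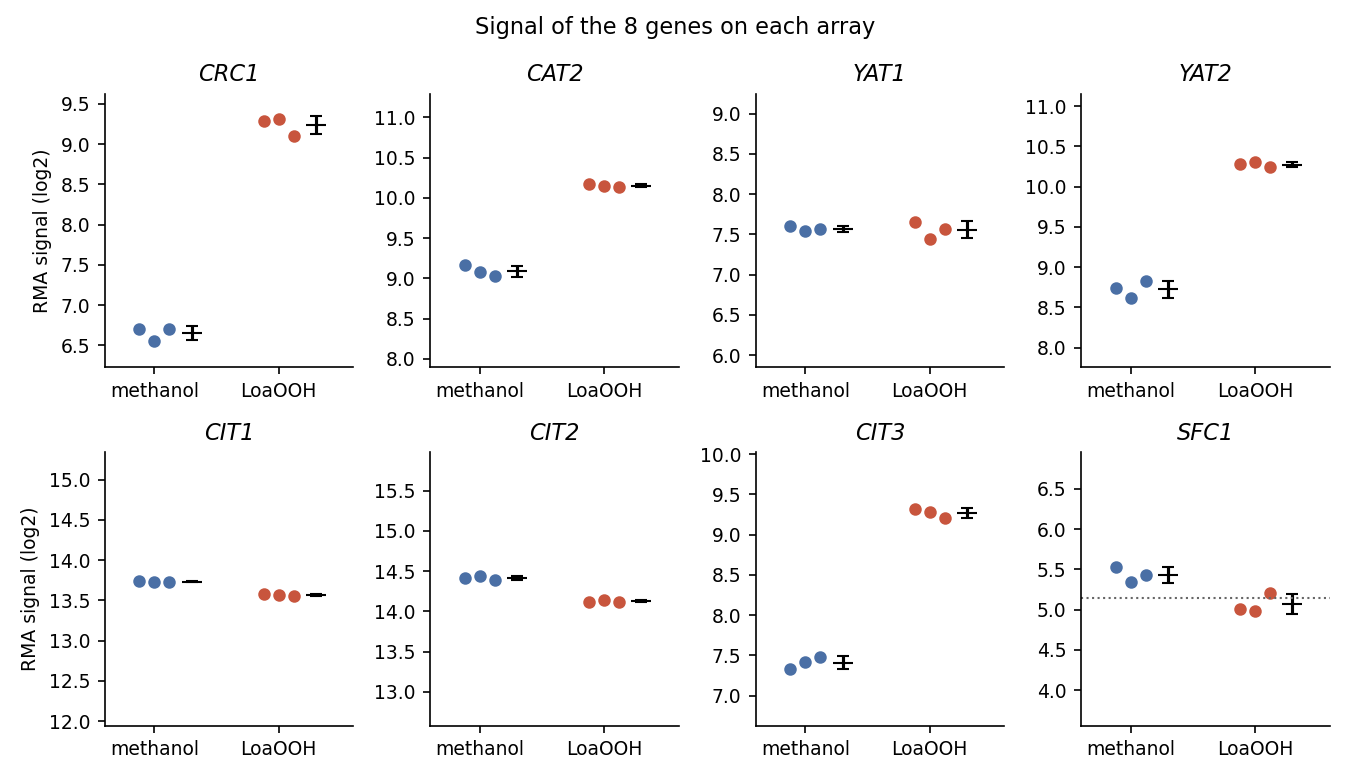
Signal of each of the 8 genes on each array, as RMA values on the log2 scale (vertical axis, the same span of log2 units in every panel), for 3 methanol arrays (blue) and 3 LoaOOH arrays (red), with the group mean and SD in black. The dotted line in the SFC1 panel is the brightest negative control at 5.146, and only CRC1, CAT2, YAT2 and CIT3 have group means 1 log2 unit or more apart.

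CRC1, the inner membrane carrier of acetyl-carnitine, read 6.70, 6.55 and 6.70 on the methanol arrays and 9.28, 9.31 and 9.11 on the LoaOOH arrays (RMA signal, log2). Every LoaOOH array lay above every methanol array, and the spread within either group was small beside the gap (SD 0.0887 and 0.111, n = 3 each). The log2 difference was 2.58 (SE 0.068), a 5.98-fold rise, which ranked 22nd among the rises of the 5498 probe sets. Scaled to the spike-ins the difference was 3.10.

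The acetyltransferases gave unequal changes. YAT2, the acetyltransferase placed in the cytosol, read 8.73, 8.61 and 8.82 with methanol and 10.28, 10.30 and 10.24 with LoaOOH. Its groups did not overlap, and its log2 difference of 1.55 (SE 0.058) is a 2.93-fold rise. CAT2 encodes the main activity, which is sent both to peroxisomes and to mitochondria from 1 gene, and its probe set cannot tell the messages for those forms apart.

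For CAT2 the methanol arrays gave 9.16, 9.08 and 9.03 and the LoaOOH arrays 10.17, 10.15 and 10.14. All 3 LoaOOH values lay above the methanol values, with a log2 difference of 1.06 (SE 0.047), or 2.09-fold. YAT1, the acetyltransferase of the outer mitochondrial membrane, gave 7.61, 7.54 and 7.56 with methanol and 7.66, 7.45 and 7.57 with LoaOOH. These groups overlapped. The log2 difference of YAT1 was -0.01 with a 95% interval from -0.15 to 0.12, so a change as large as that of CAT2 or YAT2 lies outside the interval in this scaling, while the spike-in scaling gave 0.51.

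A scaling adds the same amount to every probe set of an array, so the gap between the changes of 2 genes is the same in both scalings. YAT2 rose by 1.56 log2 units more than YAT1 (SE 0.09, from the difference taken within each of the 6 arrays), and CAT2 by 1.07 more (SE 0.066). YAT2 exceeded CAT2 by 0.49 (SE 0.084). These gaps compare changes, not levels, since signals of different probe sets do not measure relative abundance.

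The citrate synthases, which join acetyl-CoA to oxaloacetate, split in the same manner. CIT3, the minor mitochondrial enzyme that also makes 2-methylcitrate from propionyl-CoA, read 7.33, 7.42 and 7.48 with methanol and 9.32, 9.28 and 9.21 with LoaOOH. The groups lay far apart relative to their spread, and the log2 difference of 1.86 (SE 0.054) is a 3.63-fold rise.

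CIT1, the mitochondrial synthase of the tricarboxylic acid cycle, read 13.74, 13.73 and 13.73 with methanol and 13.58, 13.57 and 13.55 with LoaOOH. The 3 LoaOOH arrays were the lower ones without overlap, but by only 1.12-fold (log2 difference -0.17, SE 0.039), and the difference became 0.35 in the spike-in scaling. The within-group SD of CIT1 in methanol was 0.000954, and the SE comes from a variance moderated over all probe sets, so it is wider than those 3 values alone would give.

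CIT2, the peroxisomal synthase of the glyoxylate cycle, read 14.42, 14.45 and 14.40 with methanol and 14.12, 14.15 and 14.12 with LoaOOH. It too was lower on all 3 LoaOOH arrays, by 1.22-fold (log2 difference -0.29, SE 0.040), and the spike-in scaling gave 0.23 with no call. Relative to CIT1, the change of CIT3 was higher by 2.03 log2 units (SE 0.051), and relative to CIT2 by 2.15 (SE 0.062). The changes of CIT1 and CIT2 differed from each other by 0.12 (SE 0.019), again the same in both scalings. The SEs of these gaps are not moderated, unlike those of the single genes. The signals of CIT1 and CIT2 lay closer than that of CIT3 to the highest on any array, 15.14. Whether changes are compressed at such bright signals was not tested.

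SFC1, the succinate and fumarate carrier, gave 5.53, 5.34 and 5.43 with methanol and 5.01, 4.98 and 5.21 with LoaOOH. The groups did not overlap, yet 2 of the 6 arrays, both with LoaOOH, lay below the brightest negative control at 5.146. With the LoaOOH mean set to that control, SFC1 was at least 1.22-fold higher with methanol, and the measured log2 difference was -0.37 (SE 0.073). The spike-in scaling turned it to 0.15, not called. SFC1 is a known target of the activator Cat8, whose own message is given further on.

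**Figure D2:**
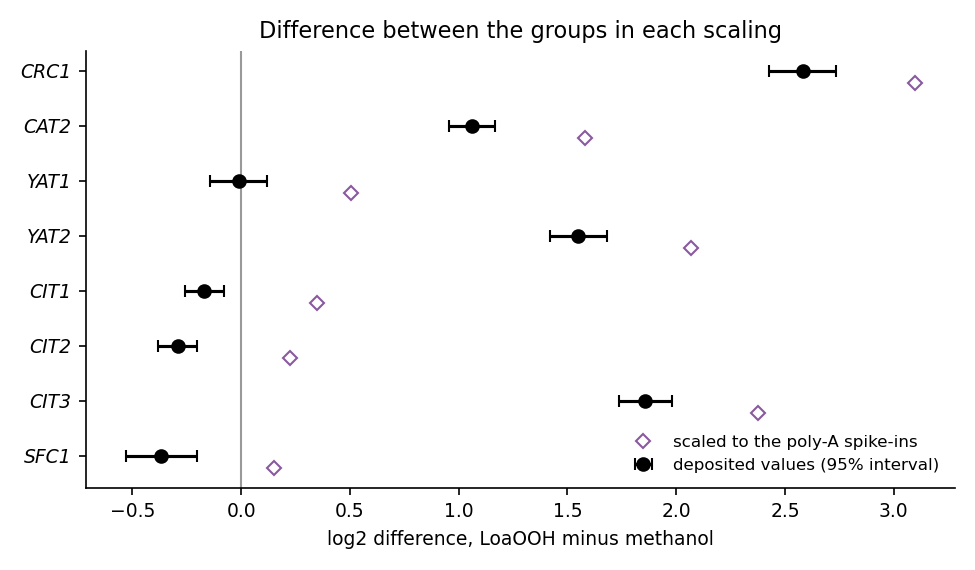
Log2 difference between LoaOOH and methanol arrays (horizontal axis) for each of the 8 genes, as points with 95% intervals in the deposited scaling and as open diamonds in the spike-in scaling. CRC1, CIT3, YAT2 and CAT2 lie between 1.06 and 2.58 in the deposited scaling, and the other 4 lie between -0.37 (SFC1, near the negative controls) and -0.01 there and above 0 in the spike-in scaling.

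Ordered by their log2 difference, the 8 genes ran from CRC1 (2.58) through CIT3 (1.86), YAT2 (1.55) and CAT2 (1.06) to YAT1 (-0.01), CIT1 (-0.17), CIT2 (-0.29) and SFC1. The measured -0.37 of SFC1 includes LoaOOH signals below the brightest negative control, so its place after CIT2 is not settled. The 95% intervals of neighbours in this order did not overlap down to YAT1, and from YAT1 to SFC1 each overlapped the next. The SD pooled within groups ranged from 0.0088 for CIT1 to 0.111 for SFC1, with 0.065 as the median of all probe sets.

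Over the 6 arrays, each profile centred on its mean, the probe sets closest to CRC1 were GTT2, a glutathione transferase, YOR338W, MET3, the ATP sulfurylase, LEU1, the isopropylmalate isomerase, and GPX2, a glutathione peroxidase homologue. Their root mean square distance from CRC1 was 0.0938 to 0.122 log2 units. Their own differences ran from 2.41 to 2.69. Closest to CIT2 were VID28, YPR148C, MRP51, RPL13B and PHO13, at 0.0115 to 0.0187 log2 units and with differences of -0.27 to -0.30. With 2 groups of 3 arrays, this likeness rests mainly on the size of the difference.

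Genes next to the 8 on the chromosome, by the order of genes in the R64 assembly, are described next. Of the 15 measured neighbours of 16, 3 were called higher and 6 lower, with a median difference of -0.01. Over all probe sets 36.8% were called higher and 41.9% lower. One gene beside CIT3, named after its value was seen, was PDH1, which encodes the methylcitrate dehydratase of propionate breakdown, the step after methylcitrate synthase.

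PDH1 read 9.35, 9.32 and 9.45 with methanol and 11.27, 11.14 and 11.14 with LoaOOH. It was higher on every LoaOOH array, by 3.52-fold (log2 difference 1.81, SE 0.055, adjusted p = 1.17e-08), close to the 1.86 of CIT3. ATO2, a putative ammonium and acetate transporter next to CIT1, also named after its value was seen, rose by 1.21 (SE 0.064, adjusted p = 2.54e-07) while CIT1 was lower.

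Carnitine enters the cell through permeases of the plasma membrane. AGP2, the carnitine and polyamine permease or regulator, was lower (log2 difference -0.25, SE 0.045, adjusted p = 0.000729), and turned to 0.27, not called, in the spike-in scaling. HNM1, the choline permease that also takes carnitine, was at 0.08 (SE 0.041, adjusted p = 0.103), and at 0.60, called higher, in the spike-in scaling. Neither message showed a difference of the size seen for CRC1, YAT2 or CAT2.

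The glyoxylate cycle is the other route for acetyl units. Of 7 genes of that cycle and of gluconeogenesis, which were listed with earlier results of these data known, as were all lists below, 6 rose and 0 fell (median 0.90), and 7 were higher in the spike-in scaling. Over all probe sets the shares were the 36.8% higher and 41.9% lower given above, and in the spike-in scaling 3625 of 5498 were higher and 422 lower. PCK1, which makes phosphoenolpyruvate, rose 2.38-fold (log2 difference 1.25, SE 0.052, adjusted p = 6.58e-08), ACS1, the acetyl-CoA synthetase used on poor carbon sources, 2.14-fold (1.09, SE 0.047), and FBP1, fructose bisphosphatase, 1.95-fold (0.97, SE 0.075). Isocitrate lyase ICL1 (0.90), malate synthase MLS1 (0.89) and cytosolic malate dehydrogenase MDH2 (0.47), named after their values were seen, rose as well. The peroxisomal malate dehydrogenase MDH3, likewise, was at -0.09 and not called (adjusted p = 0.0745), but at 0.43 and called higher in the spike-in scaling. CIT2, which feeds this cycle with citrate, was thus at -0.29 beside 0.90 for ICL1 and 0.89 for MLS1, later enzymes of the cycle. Aconitase (ACO1), the step between CIT2 and ICL1, was at -0.14 and is described below.

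Among 13 genes that supply acetyl-CoA, 9 rose and 3 were lower (median 0.24), beside 36.8% and 41.9% of all probe sets. In the spike-in scaling 11 were higher and 0 lower, beside 3625 and 422 of all 5498 probe sets. POX1, the acyl-CoA oxidase of peroxisomal beta-oxidation, rose 2.89-fold (log2 difference 1.53, SE 0.071, adjusted p = 1.22e-07), and POT1, the thiolase that releases acetyl-CoA, 1.64-fold (0.72, SE 0.062). ACH1, a CoA transferase for acetate, was lower (-0.43, SE 0.066, adjusted p = 0.000241), as was LAT1, the acetyltransferase core of pyruvate dehydrogenase (-0.24, SE 0.044, adjusted p = 0.000831). In the spike-in scaling both turned, to 0.08 and 0.28, and neither was called. ACS1 counts in this list and in the one before it.

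Downstream of citrate, 17 genes were analysed. They are genes of the tricarboxylic acid cycle and of the NADP isocitrate dehydrogenases, which are not part of the cycle and all rose. Of these 17, 13 rose and 3 were lower (median 0.25), beside 36.8% and 41.9% of all probe sets. In the spike-in scaling 15 were higher and 0 lower, beside 3625 and 422 of all 5498 probe sets. IDP2, the cytosolic NADP isocitrate dehydrogenase, rose by 0.79 (SE 0.049, adjusted p = 6.75e-07), IDH1, a subunit of the mitochondrial NAD enzyme, by 0.76 (SE 0.047) and MDH1, mitochondrial malate dehydrogenase, by 0.70 (SE 0.053) on the log2 scale. SDH3, a membrane subunit of succinate dehydrogenase, was lower (-0.71, SE 0.045, adjusted p = 7.98e-07) and was no longer called once scaled to the spike-ins (-0.19). LSC2, a subunit of succinyl-CoA ligase, was lower (-0.41, SE 0.040) and turned to 0.11 there, not called. CIT1 was at -0.17 beside this median of 0.25.

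CRC1 and SFC1 belong to the mitochondrial carrier family, whose members bring metabolites across the inner membrane. Of 29 other members, 14 rose, 9 were lower and 6 were not called, with a median of 0.08. Among all probe sets 36.8% were called higher and 41.9% lower. In the spike-in scaling 21 of the 29 were higher and 4 lower, beside 3625 and 422 of all 5498 probe sets. OAC1, the oxaloacetate carrier, read from 10.35 to 10.55 on the methanol arrays and from 13.28 to 13.34 on the LoaOOH arrays.

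OAC1 rose 7.21-fold (log2 difference 2.85, SE 0.057, adjusted p = 1.16e-09) and DIC1, the dicarboxylate carrier for malate and succinate, 4.99-fold (2.32, SE 0.045, adjusted p = 1.10e-09). CRC1 lay between these, and YMC1, a carrier of the inner membrane, followed at 1.61 (SE 0.046). CTP1, the citrate carrier, fell 2.89-fold (-1.53, SE 0.049, adjusted p = 1.49e-08), and RIM2, the pyrimidine nucleotide carrier, 2.18-fold (-1.12, SE 0.057), both also called lower in the spike-in scaling (-1.01 and -0.60).

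Values of 3 more carriers are given, picked out after their values were seen. YHM2, which exchanges citrate for oxoglutarate, fell by 1.03 on the log2 scale. Of the oxodicarboxylate carriers, ODC1 rose by 0.61, and ODC2 was lower (-0.18) in the deposited scaling and higher (0.34) in the spike-in scaling.

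**Figure D3:**
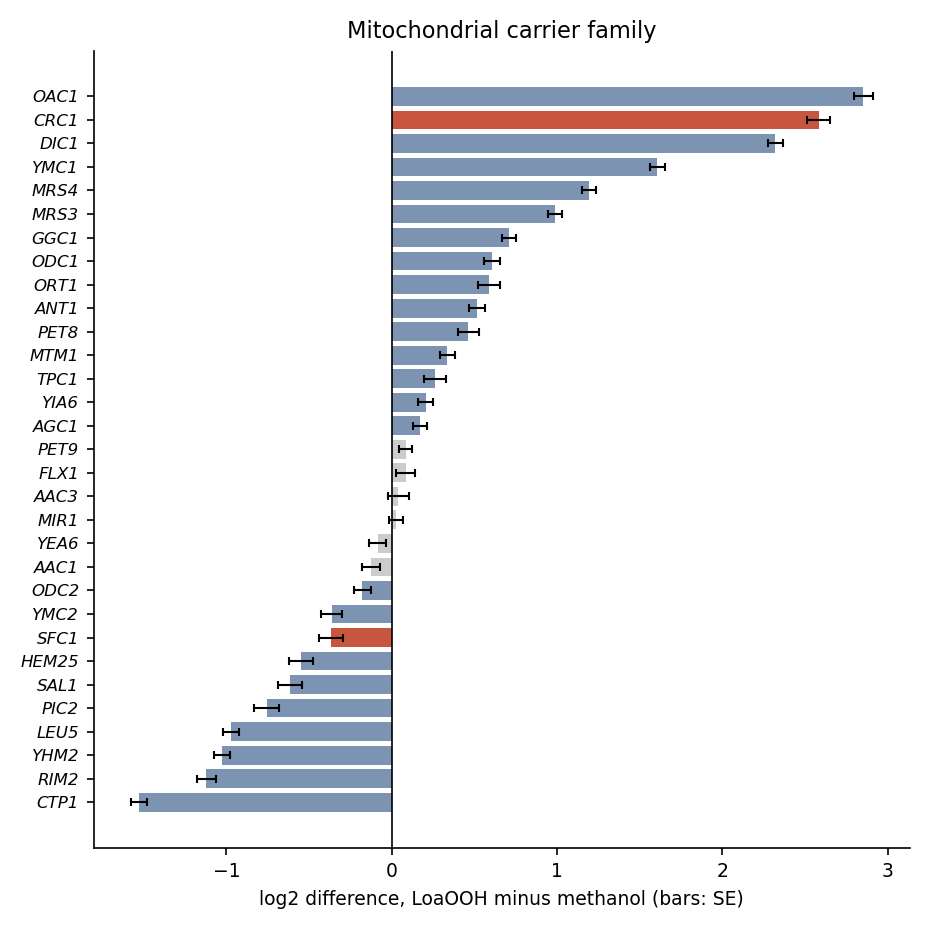
Log2 difference between LoaOOH and methanol arrays (horizontal axis, bars with SE, n = 3 per group) for CRC1 and SFC1 (red) and 29 other mitochondrial carrier genes, blue where called and grey where not. CRC1 is second to OAC1, and SFC1 is among the lower members, with CTP1 lowest.

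Pyruvate enters mitochondria through a separate complex. MPC3, the subunit paired with Mpc1 in respiring cells, rose 2.72-fold (log2 difference 1.44, SE 0.040, adjusted p = 7.08e-09). MPC1 rose by 0.42 (SE 0.062, adjusted p = 0.000205), and MPC2, the subunit used in fermenting cells, by 0.13 (SE 0.052, adjusted p = 0.0495). The call for MPC2 was lost without methanol replicate 1 or 2 or any 1 LoaOOH array (adjusted p = 0.067 to 0.17).

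CIT2 is the usual reporter of the retrograde pathway, by which Rtg1 and Rtg3 respond to the state of mitochondria, with Rtg2 as an activator and Mks1 and Lst8 as negative regulators. RTG1 read 8.26, 7.95 and 8.13 with methanol and 8.87, 8.85 and 8.85 with LoaOOH, so its groups did not overlap. RTG1 rose by 0.74 (SE 0.072, adjusted p = 1.28e-05) and RTG3 by 0.55 (SE 0.052) on the log2 scale.

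MKS1 rose by 0.76 (SE 0.045, adjusted p = 5.31e-07). RTG2 was lower (-0.22, SE 0.048, adjusted p = 0.00247) and turned to 0.30, called higher, in the spike-in scaling. LST8 was not called (-0.02, adjusted p = 0.686) but was at 0.50, called higher, in the spike-in scaling. Among these 5 regulators 3 rose and 1 was lower, beside 36.8% and 41.9% of all probe sets. In the spike-in scaling 5 were higher and 0 lower, beside 3625 and 422 of all 5498 probe sets.

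Of 5 other known targets of the pathway, 4 rose, beside 36.8% of all probe sets. In the spike-in scaling 5 were higher, beside 3625 of 5498 probe sets. The 4 that rose included IDH1 (0.76) and IDH2 (0.50), which make up isocitrate dehydrogenase. The others were PYC1, a pyruvate carboxylase (0.42, SE 0.060, adjusted p = 0.000173), and DLD3, a D-lactate dehydrogenase (0.28, SE 0.040, adjusted p = 0.000143). ACO1, aconitase, was lower (-0.14, SE 0.048, adjusted p = 0.0274). ACO1 lost the call without methanol replicate 1 or 2 or LoaOOH replicate 2 or 3 (adjusted p = 0.0506 to 0.108) and was called higher in the spike-in scaling (0.38). CIT2 at -0.29 thus stood with ACO1 and apart from the other 4 targets in the deposited scaling.

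Genes for use of carbon sources other than glucose are switched on by Cat8, Sip4 and Adr1 and, for fatty acids, by Oaf1 and Pip2. CAT8 read 8.44, 8.54 and 8.59 with methanol and 10.08, 10.09 and 10.09 with LoaOOH. It was higher on all 3 LoaOOH arrays, 2.96-fold (log2 difference 1.57, SE 0.049, adjusted p = 1.30e-08). The signal of its target SFC1 was lower in the deposited scaling and near the negative controls. No list of Cat8 targets was drawn up here, so SFC1 does not stand for its targets as a set. Of the 7 listed genes of the glyoxylate cycle and gluconeogenesis, 6 were called higher and 0 lower. Over all probe sets the shares were 36.8% and 41.9%. A link between CAT8 and these genes was not tested.

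SIP4 rose by 1.07 (SE 0.058), ADR1 by 0.81 (SE 0.059), PIP2 by 0.49 (SE 0.047) and OAF1 by 0.23 (SE 0.067, adjusted p = 0.0114). MIG1, the glucose repressor, also rose, by 1.13 (SE 0.073, adjusted p = 9.23e-07). The kinase that relieves repression went the other way. SNF1, its catalytic subunit, was lower (-0.58, SE 0.063, adjusted p = 2.85e-05), with SNF4 (-0.33, SE 0.057) and GAL83 (-0.39, SE 0.059), and none of these 3 was called in the spike-in scaling (-0.06, 0.18 and 0.12).

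The Hap complex activates CIT1 and other respiratory genes. All 4 of its subunits rose, beside 36.8% of all probe sets called higher. HAP2 rose by 0.77 (SE 0.054, adjusted p = 1.50e-06) and HAP4, the limiting activator subunit, by 0.36 (SE 0.082). HAP3 rose by 0.23 (SE 0.052) and HAP5 by 0.13 (SE 0.047, adjusted p = 0.0255). HAP5 lost the call without methanol replicate 3 or LoaOOH replicate 1 or 2 (adjusted p = 0.0508 to 0.0852). CIT1 was lower beside them in the deposited scaling and higher in the spike-in scaling.

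**Figure D4:**
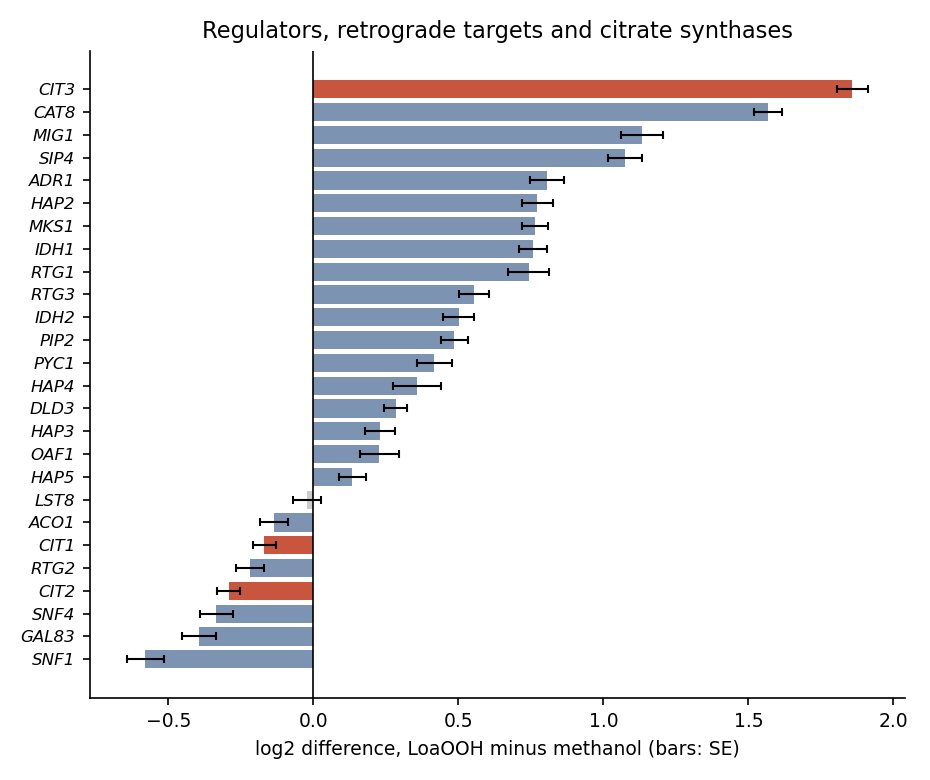
Log2 difference between LoaOOH and methanol arrays (horizontal axis, bars with SE, n = 3 per group) for the 3 citrate synthase genes (red) and for regulators and other retrograde targets, blue where called and grey where not. CIT3 (1.86) stands at the top above CAT8 (1.57), and CIT1 and CIT2 lie among the lower genes with ACO1 and RTG2.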

How the data were processed

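RNA was measured in 6 cultures on 1 Affymetrix yeast array each. The authors deposited log2 signals, made with RMA and Partek per the submitters' processing notes. Their settings and versions were not given in the sources used here. RMA usually brings arrays to 1 common distribution, which can mask a shift of most messages. Of 5900 probe sets, 184 controls and 218 without a named gene were left out. The remaining 5498 all matched a gene of R64, used for names and gene order. LoaOOH and methanol arrays were compared with limma 3.58.1 in R 4.3.3 (lmFit, eBayes, two-sided), and a call means a Benjamini-Hochberg adjusted p under 0.05 over all 5498. SEs use the moderated variance. A group mean below the brightest negative control (5.146) was set to it for folds. Precision is limited by having 3 arrays per group. The labels call the cultures biological replicates grown from a single colony, and p-values cover only their spread.

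The members, lists and tests were chosen with earlier results of these data known. The text names all 8 members, all genes of lists of 5 or fewer and of the carbon source regulators, and up to 3 called rises and 2 called falls of longer lists, and genes outside this rule are marked as named after their values were seen. The fit was tested on simulated data. Alternatives were other normalizations and variance models, a spike-in scaling, array weights, a filter on dim probe sets, stricter thresholds, a replicate block, and each array left out. The planned promoter search was not run, as promoter sequences were not used here.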

Additional observations from a re-analysis of the deposited data

How the results depend on the processing

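Of the 8 genes, 4 were called higher and 3 lower under quantile normalisation, median centring, both other variance models, array weights, an adjusted p under 0.01, the replicate block and with any 1 array left out. The estimate of the array weights gave a convergence warning, so results with them are less certain. Leaving out the dimmest 25% of probe sets removed 5 of the 8 before the test, CRC1, YAT1, YAT2, CIT3 and SFC1. Of those kept, 1, CAT2, was then called higher. In the spike-in scaling 0 were called lower, and CIT1 (0.35, called higher), CIT2 (0.23), SFC1 (0.15) and YAT1 (0.51, called higher) turned positive. Tested with treat for changes beyond 0.5 log2 units, 0 of the 8 were called lower (at an unadjusted p under 0.05 from the ordinary test 3 were), and 4 higher. By treat 581 of all 5498 probe sets were called higher and 640 lower. Over the 89 measured genes of the lists, 58 were called higher and 20 lower, beside 2022 and 2305 of all 5498 probe sets. Treat called 25 of the 89 higher and 6 lower. In the spike-in scaling 73 of the 89 were higher and 4 lower, beside 3625 and 422 of all 5498 probe sets. There 16 of the 89 turned from below to above 0. The 11 named in the text were AGP2 (0.27), ACH1 (0.085), LAT1 (0.28), LSC2 (0.11), RTG2 (0.30), ACO1 (0.38), SNF4 (0.18), GAL83 (0.12), LST8 (0.50), MDH3 (0.43) and ODC2 (0.34). Each of these turns comes from the 0.518 that the scaling adds. Over all probe sets 46.7% of calls were higher, and 89.6% in the spike-in scaling. HNM1 was called higher with median centring, array weights or no variance moderation (adjusted p = 0.0272 to 0.0328) and in the spike-in scaling. MDH3 was called lower in 4 settings (quantile normalisation, both other variance models and array weights, adjusted p = 0.00643 to 0.0363). Without variance moderation MPC2 (adjusted p = 0.0916) and OAF1 (0.0622) lost their calls, and ACO1 did with quantile normalisation or median centring (0.0575 and 0.0761). Same-numbered arrays of the 2 groups deviated together at r = 0.31, 0.049 and 0.258. Of the 3 LoaOOH arrays, 2 were closest to the methanol array of their own number, and these values do not settle whether the numbers mark pairs. The main fit used no pairing, as the labels do not say that a number marks a shared culture or day. The replicate block called 58 of the list genes higher and 21 lower, beside 2089 and 2364 of all 5498 probe sets. SFC1 lies too near the negative controls for a measured fold.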
